A study of Mus musculus with 8 samples.

Results

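Amino acid and peptide transporters are membrane carriers of the solute carrier (SLC) gene families. The genes examined were those of the families Slc1, Slc3, Slc6, Slc7, Slc15, Slc36, Slc38 and Slc43, chosen by symbol, together with the aromatic amino acid carrier Slc16a10. They numbered 65 of the 17634 genes in the deposited table. Of these, 63 were transporter genes and 2, Slc6a19os and Slc7a6os, were named for the strand opposite a transporter. RNA came from crypts of the small intestine, the mice being of strain C57BL/6N, and was sequenced as 4 libraries from miR-29ab1-/- mice (knockout, or KO), which lack the locus of miR-29a and miR-29b-1, and 4 from wild-type (WT) mice. Both groups had been irradiated 3 days earlier, and the radiation dose was not given in the sources used here. All samples were irradiated, so each difference below is one between genotypes after irradiation. The microRNA genes were not among the rows of the table, so the genotype labels were not checked by the deleted locus itself.

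Proteins in the gut are cut to small peptides and free amino acids, which enter the absorptive cell (enterocyte) through carriers of the luminal brush border and leave to the blood through carriers of the basolateral membrane. Several of these carriers are pairs: a light chain of the Slc7 family moves the amino acids, and a heavy chain of the Slc3 family brings it to the membrane. Dividing cells use a partly different set of carriers, for glutamine, leucine, cystine and arginine, to feed protein and glutathione synthesis.

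Libraries held 9481201 to 14612798 counts in knockout and 10719668 to 16231099 in wild type. Summed transcripts of 10 fibroblast and muscle markers stood at 199 and 205 CPM (counts scaled to library size, with TMM factors) in KO replicates 3 and 4 and at 175 in WT replicate 3. They lay at 16.9 to 17.5 CPM in the other KO libraries and at 15.6 to 52.8 in the other WT libraries. Summed transcripts of 8 immune markers stood at 501 CPM in KO replicate 3. They lay at 76.8 to 223 CPM in the other KO libraries and at 31.2 to 128 in the WT libraries. Summed counts of 4 Y-linked genes were 1 in KO replicate 4 and 3 in WT replicate 4, against 1285 to 1659 in the other KO libraries and 1528 to 2061 in the other WT libraries. The labels do not say whether the replicates came from separate animals, so p-values measure only the spread between these samples.

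The members were read against the 3p strands of miR-29, shown here because the knockout removes both the first of them and a copy of the second. The sequences are from RefSeq (GRCm38.p6), and capitals mark the seed, bases 2 to 8, which all 3 share.
miR-29a-3p (chr6:31062673-31062694, minus strand): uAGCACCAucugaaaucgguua
miR-29b-3p (chr6:31063025-31063047, minus strand, with a second copy on chromosome 1): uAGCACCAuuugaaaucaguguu
miR-29c-3p (chr1:195037600-195037621, plus strand): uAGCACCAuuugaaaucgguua

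The complement of that seed, TGGTGCT, was searched on the sense strand of each gene's longest 3′ UTR (GENCODE M21, GRCm38). It was present in 13 of the 42 tested members with a UTR (31.0 percent), against 1965 of the 12648 tested genes with one (15.5 percent). The members' UTRs were also longer, with a median of 1766 bases against 1164 over all tested genes. The median was 3519 bases in the 13 members with a match. The match was found in 5 of 18 members higher in knockout, in 4 of 8 lower members and in 4 of 16 members without a call. Among all genes, 14.9 percent of those higher in knockout and 14.4 percent of those lower held it. Matches in members with a call are shown with their flanks, with TGGTGCT in capitals. Those in Slc7a15 and Slc36a4, both higher in knockout, are not shown. A match is a stretch of letters and was not tested as a site.
Slc43a2, the first of 3 (chr11:75573009-75573037, plus strand): cttcctgttgtTGGTGCTaacccctttgt
Slc43a2, the second (chr11:75575186-75575214, plus strand): cgatttgattcTGGTGCTgcccagaggtt
Slc38a9, the first of 2 (chr13:112736683-112736711, plus strand): tcctgcccactTGGTGCTctgtctccgac
Slc6a3 (chr13:73577729-73577757, plus strand): aagtcctttccTGGTGCTtggctccgagc
Slc7a5 (chr8:121881523-121881551, minus strand): gcagggattcaTGGTGCTgacccaggctc
Slc7a11 (chr3:50368111-50368139, minus strand): gcactctgtgtTGGTGCTgatagaatgca
Slc7a1 (chr5:148330681-148330709, minus strand): gttatgtagatTGGTGCTgtaaaatattt
Slc7a6 (chr8:106197466-106197494, plus strand): agctgaatccaTGGTGCTgtggagccctt

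Of the tested carriers that absorb amino acids from the gut, 6 of 9 luminal and 5 of 6 basolateral genes were higher in knockout crypts, and 6 of 9 carriers that feed growing cells were lower. The roles were assigned with earlier results of these data known, so this split is not independent of the data. Slc3a2, which also pairs with the carriers of growing cells Slc7a5 and Slc7a11, was counted as basolateral. Of the 65 members, 43 had enough counts to be tested, and 27 differed between genotypes in edgeR's quasi-likelihood test at a Benjamini-Hochberg adjusted p of 0.05 or less. That is 62.8 percent of the tested members, against 47.3 percent of all 12908 tested genes. In knockout, 18 members were higher, which is 41.9 percent of those tested against 24.2 percent of all genes, and 9 were lower, which is 20.9 percent against 23.1 percent. The median log2 fold change was 0.68 over the tested members and 0.03 over all tested genes. In 18 higher and 9 lower members the 4 knockout values did not overlap the 4 wild-type values. The same held for 45.4 percent of all genes, 22.7 percent in each direction. At least 4-fold higher were 13 of the 43 tested members, against 618 of all 12908 tested genes (4.79 percent). The 13 include Slc6a3 and Slc6a18, which entered the test mainly through knockout, as described next.

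Of the 43 tested members, 38 passed the filter on low counts in all 8 libraries. Slc6a3 and Slc6a18 passed it in 4 knockout libraries and in 1 and 2 wild-type libraries, so that they entered the test mainly through the group in which they were high. Slc15a3, which had no call, passed it in 1 knockout and 4 wild-type libraries. The other 22 members, among them Slc6a19os, were not tested, and none of them exceeded 31 counts in any library.

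**Figure D1:**
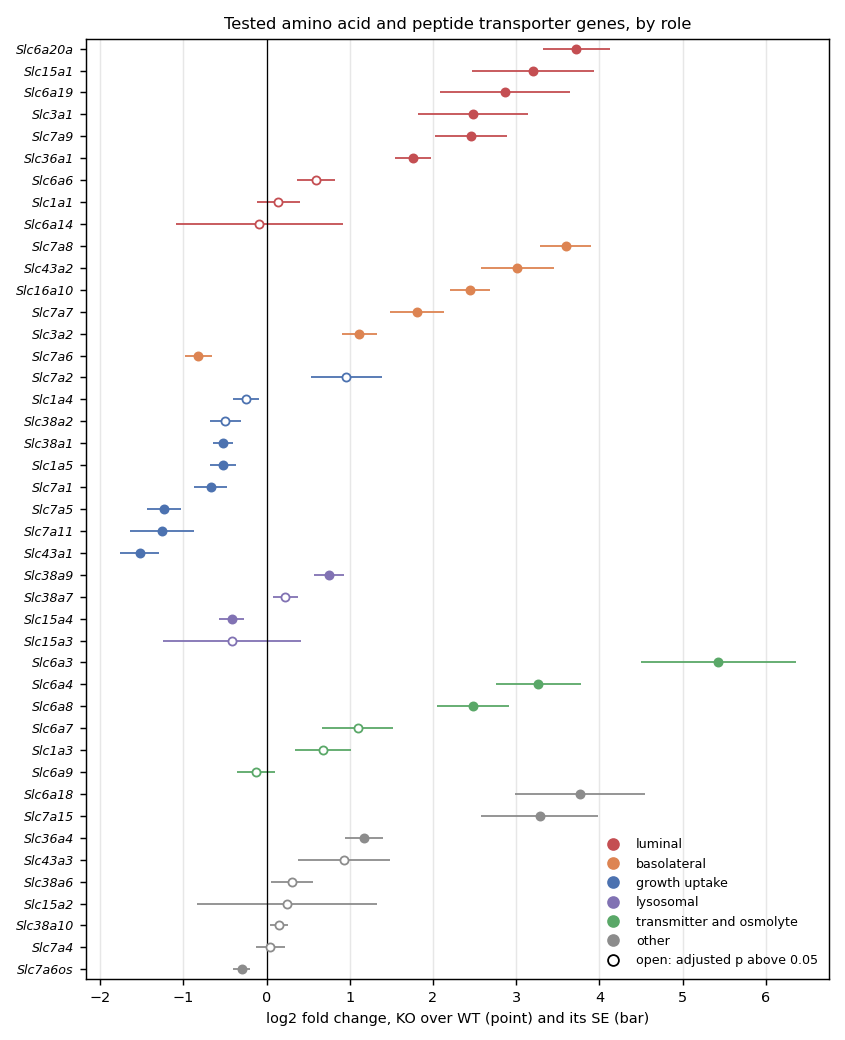
Log2 fold changes (KO over WT, ± SE, x axis) of the 43 tested members, grouped by role, with filled points at an adjusted p of 0.05 or less and open points above it. The luminal and basolateral carriers lie mostly to the right of 0, up to 3.72, and the carriers of growth uptake mostly to the left, down to −1.52.

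By family, the calls did not run one way. Over all tested genes 24.2 percent were higher and 23.1 percent lower, and most families held few tested members. The heavy chains of family Slc3 were both higher, at a median log2 fold change of 1.80. In family Slc6, sodium- and chloride-coupled carriers, 6 of 10 tested members were higher (60.0 percent) and none was lower. The 6 include Slc6a3 and Slc6a18, which entered the test mainly through knockout. Family Slc7, which holds the light chains and the cationic carriers, had 4 higher and 5 lower among 11 tested. Of the 4 tested members of family Slc1, sodium-coupled carriers of glutamate and small neutral amino acids, 1 was lower and 3 had no call. In family Slc38, carriers of glutamine and other neutral amino acids, 1 was higher, 1 was lower and 4 had no call. Both tested members of family Slc36 were higher, Slc16a10 was higher, and families Slc15 and Slc43 each had 1 member higher and 1 lower. In each direction the share was 25.0 percent in Slc15, close to that of all genes, and 16.7 percent in Slc38.

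The luminal carriers were the group with the highest levels in knockout. Of the 10 luminal genes, 9 were tested, 6 were higher, none was lower and 3 had no call, with a median log2 fold change of 2.46. The gene not tested was Slc6a20b, a neighbour of Slc6a20a, with at most 3 counts in a library.

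Slc15a1, the proton-coupled carrier of dipeptides and tripeptides, stood at 1099, 747, 261 and 640.1 CPM in KO replicates 1 to 4, against 117, 138, 26.4 and 16.9 CPM in WT replicates 1 to 4. Every knockout library lay above every wild-type library, and in wild type replicates 3 and 4 were lower than replicates 1 and 2. It rose 9.21-fold (log2 3.20 ± 0.73, SE, adjusted p = 0.0066). Slc6a19, the main sodium-coupled carrier of neutral amino acids, had 2127, 1417, 492 and 1328 CPM in knockout and 288, 358, 55.6 and 33.8 CPM in wild type. The lowest knockout library, replicate 3, was above the highest wild-type library, replicate 2. The rise was 7.30-fold (2.87 ± 0.78, adjusted p = 0.0145). An antisense gene, Slc6a19os, overlaps Slc6a19, and use of strand in counting is not given, so reads of the pair cannot be told apart. Its highest count in any library was 14.

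Slc6a20a, a carrier of proline and other imino acids, had 45.1, 41.4, 15.9 and 30.1 CPM in knockout and 3.17, 3.41, 2.33 and 1.27 CPM in wild type. All wild-type libraries were low and close together, and the groups did not overlap. The 13.2-fold rise (3.72 ± 0.40, adjusted p = 0.00108) was the largest of the luminal genes. Slc3a1 and Slc7a9 form the exchanger that takes up cystine and cationic amino acids, and loss of either causes cystinuria. Slc7a9, the light chain, had 276, 223, 141 and 167 CPM in knockout and 48.2, 56.2, 30.7 and 12.1 CPM in wild type. It rose 5.50-fold (2.46 ± 0.44, adjusted p = 0.00227). Slc3a1, the heavy chain, had 538, 359, 163 and 292 CPM in knockout and 99.3, 99.0, 34.7 and 10.5 CPM in wild type. Its rise of 5.57-fold (2.48 ± 0.66, adjusted p = 0.0132) was of similar size, and in both genes WT replicate 4 was the lowest library. The ratio of Slc7a9 to Slc3a1, both in FPKM (fragments per kilobase, scaled to library size), was 0.684 to 1.17 in knockout and 0.644 to 1.53 in wild type, so it overlapped between genotypes.

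Slc36a1, a proton-coupled carrier of proline, glycine and alanine, had 97.5, 63.6, 118 and 109 CPM in knockout and 35.2, 31.0, 26.1 and 22.6 CPM in wild type. Here KO replicate 3, the lowest knockout library for the peptide carrier, was the highest. The rise was 3.38-fold (1.76 ± 0.21, adjusted p = 0.00108). The taurine carrier Slc6a6 had 352, 306, 186 and 392 CPM in knockout and 192, 202, 170.0 and 254 CPM in wild type. The groups overlapped in KO replicate 3, and the difference did not pass the test (log2 0.59 ± 0.23, adjusted p = 0.0594). With the replicate number as a block the adjusted p was 0.0127. The glutamate and aspartate carrier Slc1a1 averaged 37.9 ± 14.6 CPM in knockout and 34.3 ± 7.94 in wild type (SD, n = 4 each), with an adjusted p of 0.675. Its log2 fold change was 0.14, and −0.11 with scaling by total counts.

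Slc6a14, a carrier of both neutral and cationic amino acids, was the most uneven luminal gene. It had 13.6, 7.07, 25.5 and 187 CPM in knockout and 98.3, 110.3, 22.6 and 16.9 CPM in wild type. KO replicate 4 was above every wild-type library, while the other knockout libraries lay within or below the wild-type range. The log2 fold change was −0.09 ± 1.00 (adjusted p = 0.951). Without KO replicate 4 it was −2.06 (adjusted p = 0.0494), and in replicates 1 to 3 of both genotypes −2.37 (adjusted p = 0.022).

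**Figure D2:**
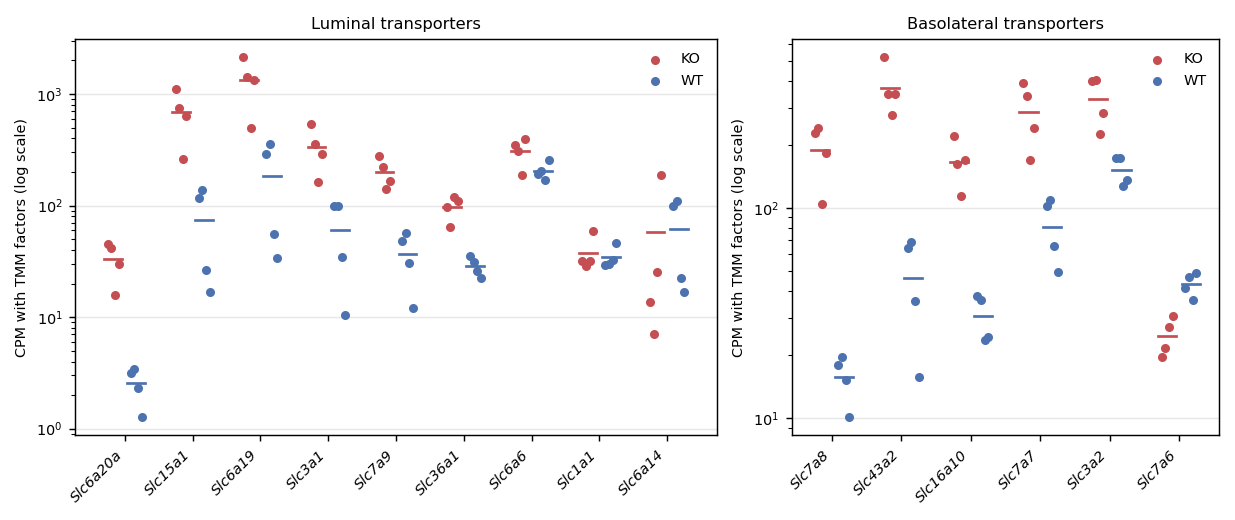
CPM per library (log axis) of the luminal and basolateral carriers, with KO libraries (points) left of WT libraries and a bar at each group mean. Slc15a1 ranges over 261 to 1099 CPM in KO and 16.9 to 138 in WT, and Slc6a14 is the luminal gene with the widest overlap of groups.

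All 16 enterocyte markers were higher in knockout, at a median log2 fold change of 3.13. Their summed level was 98107, 82838, 28928 and 43332 CPM in KO replicates 1 to 4 and 12627, 12344, 5016 and 2960.3 CPM in WT replicates 1 to 4. In knockout this is the same order of libraries as for Slc15a1 and Slc6a19, but not for Slc36a1, which was highest in replicate 3. In wild type WT replicate 2 was above replicate 1 for both Slc15a1 and Slc6a19, while the marker sum was higher in replicate 1. None of the markers was at 0 in every library. In bulk samples, fewer cells of a type and less RNA per cell cannot be told apart, and the part of cell composition in these differences was not tested. Lct, the lactase, had 738 ± 318 CPM in knockout and 26.9 ± 16.8 in wild type, and Mgam and Vil1, a brush-border glucosidase and an actin bundler, rose 3.40-fold and 3.36-fold (adjusted p = 0.00115, 0.00118 and 0.00161).

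The basolateral carriers divided into 5 that rose and 1 that fell, with a median log2 fold change of 2.13 over the 6. Slc7a8, a light chain that exchanges neutral amino acids, had 227, 240.0, 105 and 183 CPM in knockout and 17.9, 19.6, 15.2 and 10.1 CPM in wild type. The lowest knockout library was far above the highest wild-type library, and the rise was 12.1-fold (3.59 ± 0.31, adjusted p = 0.00104). Slc43a2, a facilitative carrier through which neutral amino acids leave the cell, had 520.2, 348, 278 and 349 CPM in knockout and 64.6, 69.1, 36.0 and 15.7 CPM in wild type. It rose 8.08-fold (3.01 ± 0.44, adjusted p = 0.00129). Its 3′ UTR holds the most miR-29 seed matches of the members, the first 2 of its 3 being shown above. That UTR is 5099 bases long, against a median of 1766 over the tested members, and a link of the matches to the rise was not tested. Slc16a10, a facilitative carrier of aromatic amino acids, had 219, 162, 114 and 169 CPM in knockout and 38.1, 36.3, 23.5 and 24.3 CPM in wild type. No library of the groups overlapped, and the rise was 5.45-fold (2.44 ± 0.24, adjusted p = 0.00108).

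The remaining basolateral genes belong to the exchanger of cationic amino acids. Slc7a7, its light chain, had 394, 339.9, 168 and 239 CPM in knockout and 102, 109, 65.7 and 49.3 CPM in wild type. It rose 3.50-fold (1.81 ± 0.33, adjusted p = 0.00245), and loss of this gene causes lysinuric protein intolerance in humans. Slc3a2, the heavy chain shared by many light chains, had 402, 407, 226 and 283 CPM in knockout and 173, 173, 127 and 135 CPM in wild type. The groups did not overlap, although at 2.17-fold (1.11 ± 0.21, adjusted p = 0.00316) its rise was the smallest of the 5. Slc7a6, a close relative of Slc7a7 with the same type of exchange, went the other way. It had 19.6, 21.5, 27.1 and 30.4 CPM in knockout and 41.4, 46.8, 36.5 and 49.2 CPM in wild type, and it was 1.76-fold lower in knockout (−0.82 ± 0.16, adjusted p = 0.00374). Slc7a6os, which lies next to Slc7a6 without overlapping it in RefSeq, was 1.23-fold lower (−0.30 ± 0.10, adjusted p = 0.0375), a call that was lost without WT replicate 1, 2 or 4 (adjusted p = 0.0889, 0.0688 and 0.11). The counts of Slc3a1, Slc3a2 and Slc7a7 were not whole in 7, 8 and 8 libraries. Those of Slc6a20a, Slc6a20b, Slc6a18 and Slc7a14 were not whole in 3, 3, 2 and 5 libraries. Some of their reads may have been shared with other genes in the authors' counting, whose program is not given, and this was not tested.

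The make-up of the light chains that pair with Slc3a2 was compared through FPKM, which allow levels of different genes to be set side by side. Slc7a7 took 64.4 ± 5.46 percent of the FPKM of 5 light chains in knockout and 42.1 ± 9.13 percent in wild type (SD, n = 4 each). Slc7a8 took 23.9 ± 2.20 percent in knockout and 4.48 ± 0.917 percent in wild type. Slc7a5, the light chain for large neutral amino acids in growing cells, took 7.87 ± 3.91 percent in knockout and 38.9 ± 7.69 percent in wild type. Slc7a6 took 3.32 ± 1.55 percent in knockout and 12.3 ± 2.20 percent in wild type, and Slc7a11 took 0.506 ± 0.471 percent and 2.26 ± 0.363 percent. For none of the 5 shares did the groups overlap.

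Within that exchange, the ratio of Slc7a8 to Slc7a5 FPKM was 5.98, 4.79, 1.76 and 2.50 in knockout and 0.141, 0.143, 0.138 and 0.0622 in wild type. Slc7a8 was thus the more abundant of the pair in every knockout library and the less abundant in every wild-type library. The ratio of Slc7a7 to Slc7a6 was 38.0, 30.0, 11.7 and 14.8 in knockout and 4.66, 4.37, 3.39 and 1.89 in wild type. The sum of the 5 light chains over the heavy chain Slc3a2 was 1.53 ± 0.116 in knockout and 1.48 ± 0.0461 in wild type. These values overlapped, with 1.41 to 1.65 in knockout and 1.44 to 1.54 in wild type.

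**Figure D3:**
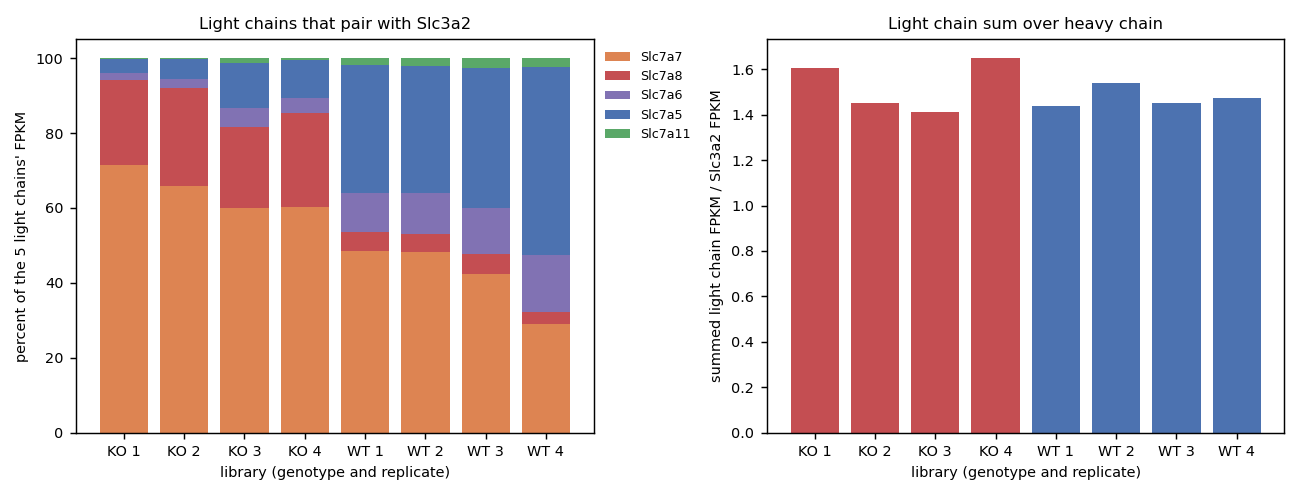
Left, percent of the summed FPKM of the 5 light chains of Slc3a2 per library, and right, the ratio of that sum to Slc3a2 FPKM, with KO libraries left of WT. Slc7a8 takes 21.4 to 26.2 percent in KO and 3.12 to 5.13 percent in WT, while the ratio lies between 1.41 and 1.65 in all libraries.

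Carriers known for uptake into growing cells were lower or without a call in knockout. Of 13 such genes 9 were tested, of which 6 were lower, none was higher and 3 had no call, with a median log2 fold change of −0.52. The 4 not tested were Slc7a3, Slc38a3, Slc38a4 and Slc38a5. Slc7a5 had 36.8, 49.7, 60.0 and 70.5 CPM in knockout and 126, 134, 101 and 150.1 CPM in wild type. It was lower in each knockout library than in any wild-type library, by 2.36-fold (−1.24 ± 0.20, adjusted p = 0.00183). Slc43a1, a facilitative carrier of large neutral amino acids, had 2.75, 3.62, 4.19 and 5.52 CPM in knockout and 12.5, 13.1, 10.2 and 10.5 CPM in wild type. It fell the most of the group, by 2.88-fold (−1.52 ± 0.23, adjusted p = 0.00145). Its relative in the same family, Slc43a2, is the basolateral gene that rose.

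Slc7a11, the exchanger that imports cystine for glutathione, had 4.12, 4.51, 15.6 and 8.89 CPM in knockout and 19.2, 20.9, 20.0 and 18.5 CPM in wild type. KO replicate 3 came nearest to the wild-type libraries, which were close to each other. The difference was 2.39-fold (−1.25 ± 0.38, adjusted p = 0.0235), and without WT replicate 2 the adjusted p was 0.0513. The cationic carrier Slc7a1 had 67.1, 85.7, 115 and 126 CPM in knockout and 149, 140.2, 150.4 and 188 CPM in wild type. The glutamine and neutral amino acid exchanger Slc1a5 had 95.2, 123, 135 and 155 CPM in knockout and 178, 178, 166 and 208 CPM in wild type. In both genes the groups stayed apart by a small margin. They were 1.59-fold and 1.44-fold lower (adjusted p = 0.0219 and 0.0225), and without WT replicate 4 the adjusted p-values were 0.0592 and 0.0623.

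The sodium-coupled glutamine carrier Slc38a1 had 115, 101, 127 and 117 CPM in knockout and 154, 151, 168 and 188 CPM in wild type, and it was 1.44-fold lower (−0.52 ± 0.12, adjusted p = 0.00626). Its neighbour on chromosome 15, Slc38a2, of the same type, had 90.3, 94.0, 132 and 141 CPM in knockout and 143, 135, 179 and 189 CPM in wild type. KO replicate 4 lay above WT replicate 2, and the test was not passed (log2 −0.49, adjusted p = 0.0535). With the replicate block the adjusted p was 0.00353. Slc1a4, a carrier of alanine, serine and cysteine, averaged 39.9 ± 9.65 CPM in knockout and 47.3 ± 1.66 in wild type (adjusted p = 0.23). The cationic carrier Slc7a2 was scarce, with 1.53 ± 0.812 CPM in knockout and 0.779 ± 0.183 in wild type (adjusted p = 0.094).

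**Figure D4:**
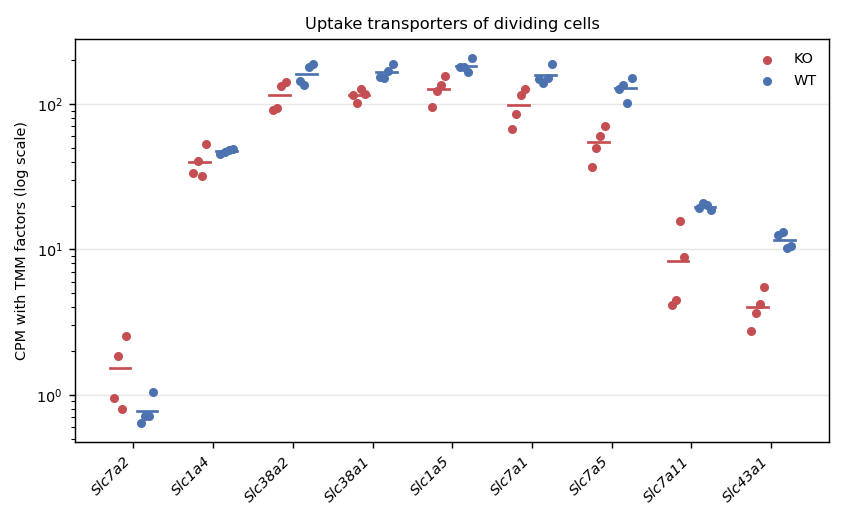
CPM per library (log axis) of the tested carriers of growth uptake, with KO libraries (points) left of WT libraries and a bar at each group mean. Slc7a5 lies at 36.8 to 70.5 CPM in KO and 101 to 150.1 in WT, and Slc38a2 and Slc1a4 overlap between groups.

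Markers of dividing and stem cells moved with this group. All 10 were lower in knockout, with log2 fold changes of −1.42 to −0.84, and their summed level was 631 to 1037 CPM in knockout and 1764 to 2244 CPM in wild type. Birc5, an inhibitor of apoptosis needed for mitosis, had 41.2 ± 5.70 CPM in knockout and 101 ± 7.22 in wild type (SD, n = 4 each, adjusted p = 0.00104). Their part in the lower carriers was not tested. With scaling by total counts the median log2 fold change of all genes was −0.23 in place of 0.03. Small rises and small falls therefore both depend on the scaling. With total counts Slc38a9 lost its call as higher (log2 0.49, adjusted p = 0.0987). Slc38a2 gained a call as lower (−0.74, adjusted p = 0.0426). Under that scaling 17 members were higher and 10 lower, while of all called genes 34.2 percent were higher in place of 51.3 percent.

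Levels per length put the groups in proportion. The FPKM of all transporter members summed to 1921 ± 463 in knockout and 741 ± 156 in wild type (SD, n = 4 each). The authors' FPKM are scaled to each library's own total, without TMM factors. The luminal genes made up 39.5 to 53.3 percent of that sum in knockout and 17.9 to 38.1 percent in wild type. The carriers of growth uptake made up 3.49 to 11.9 percent in knockout and 23.2 to 44.8 percent in wild type. The share of the basolateral genes overlapped, at 18.3 to 23.8 percent in knockout and 19.5 to 21.7 percent in wild type.

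The order of single genes differed as well. In knockout Slc6a19 was the highest, at 378 ± 160 FPKM, followed by Slc6a8 at 275 ± 86.4 and Slc15a1 at 199.7 ± 82.5. The FPKM ranges of these 3 overlapped. As shares of each library's transporter FPKM, Slc6a8 took 12.9 to 15.8 percent and Slc15a1 took 7.06 to 12.3 percent, which did not overlap. In wild type the glutamine exchanger Slc1a5 was the highest, at 76.9 ± 8.07 FPKM, followed by Slc3a2 at 72.7 ± 7.58, Slc6a19 at 63.8 ± 55.0 and Slc6a8 at 59.7 ± 27.0. The FPKM of Slc3a2, Slc6a19 and Slc6a8 overlapped those of Slc1a5. Slc1a5 ranked 12 in knockout, at 45.2 FPKM, and Slc15a1 ranked 11 in wild type, at 26.5 ± 21.2 FPKM. The ratio of Slc6a19 to Slc1a5 was 19.0, 9.78, 3.02 and 7.17 in knockout and 1.36, 1.73, 0.291 and 0.139 in wild type. In contrast, the ratio of the peptide carrier Slc15a1 to Slc6a19 kept to 0.501 to 0.555 in knockout and 0.391 to 0.509 in wild type, and the groups overlapped.

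**Figure D5:**
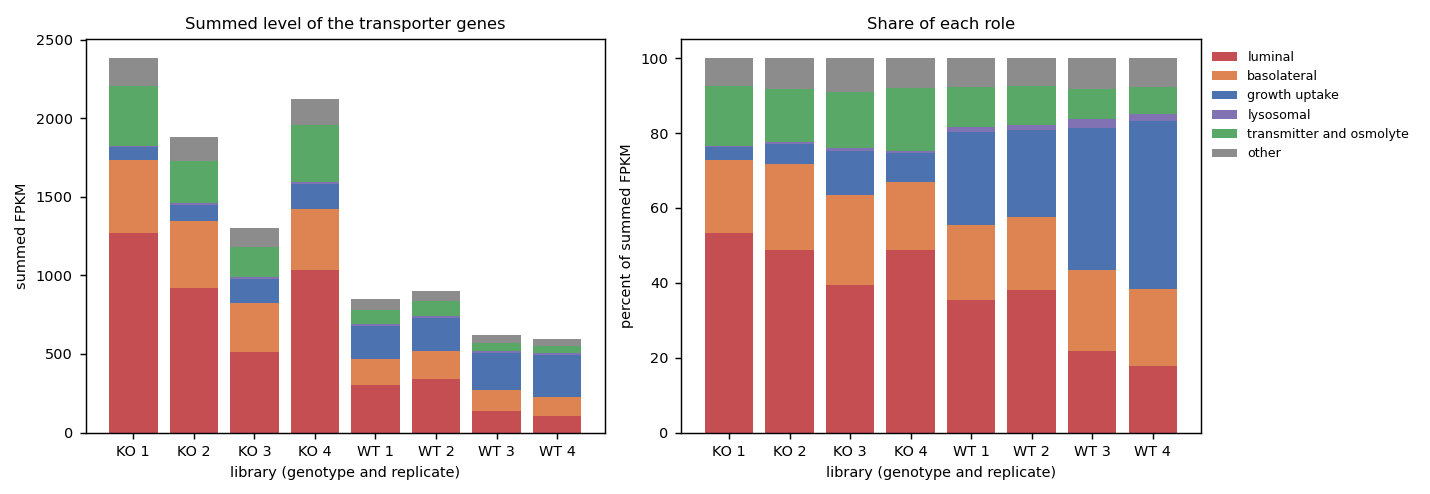
Summed FPKM of the transporter members per library, stacked by role (left), and the same as percent of the sum (right), with KO libraries left of WT. The luminal share is 39.5 to 53.3 percent in KO and 17.9 to 38.1 percent in WT.

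Carriers of lysosomes, where protein is broken down inside the cell, showed small differences. Of 5 genes 4 were tested, with 1 higher, 1 lower and 2 without a call. The 25.0 percent in each direction lies close to the 24.2 percent higher and 23.1 percent lower of all tested genes. Slc38a9, an arginine-sensing carrier that signals to the mTOR kinase complex, had 13.0, 9.63, 12.4 and 13.0 CPM in knockout and 6.20, 7.35, 6.34 and 8.64 CPM in wild type. It rose 1.68-fold (0.75 ± 0.18, adjusted p = 0.00828), and with scaling by total counts the log2 fold change was 0.49 (adjusted p = 0.0987). Slc15a4, a carrier of histidine and peptides, had 8.92, 11.1, 9.07 and 11.4 CPM in knockout and 14.2, 11.6, 13.8 and 14.5 CPM in wild type. The groups nearly touched, and its 1.34-fold fall (−0.42 ± 0.15, adjusted p = 0.048) was not called in 10 alternatives (adjusted p = 0.0543 to 0.159), the replicate block among them (0.0574). The lysosomal glutamine carrier Slc38a7 averaged 14.6 ± 1.95 CPM in knockout and 12.5 ± 1.49 in wild type (log2 0.23, or −0.05 with total counts, adjusted p = 0.252). Slc15a3, a relative of Slc15a4, ranged over 0.515 to 4.39 CPM in knockout and 0.717 to 4.36 in wild type (adjusted p = 0.702). KO replicate 3 and WT replicate 3 were its highest libraries, and without KO replicate 3 the log2 fold change was −1.87 (adjusted p = 0.0423). Slc15a3 passed the filter on low counts in 4 wild-type libraries and in 1 knockout library, KO replicate 3. Without that library it entered the test through wild type, where it was higher, so this value is not an independent sign of a fall.

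Carriers of transmitters and osmolytes included some of the largest fold changes. Of 17 listed genes 15 were in the table, 6 were tested, 3 were higher and none was lower. Over all tested genes 24.2 percent were higher and 23.1 percent lower. The 3 higher genes include Slc6a3, which passed the filter on low counts in 4 knockout libraries and 1 wild-type library. Its call is therefore not independent of that filter. Slc6a2 and Slc6a11 were not analysed here. The creatine carrier Slc6a8 had 1699.6, 1128, 611 and 1318 CPM in knockout and 299, 311, 125 and 117 CPM in wild type. No library overlapped, and the rise was 5.59-fold (2.48 ± 0.43, adjusted p = 0.00205). The serotonin carrier Slc6a4 had 68.7, 64.8, 37.4 and 34.6 CPM in knockout and 7.89, 8.34, 4.24 and 1.27 CPM in wild type. It rose 9.62-fold (3.27 ± 0.51, adjusted p = 0.00152). The dopamine carrier Slc6a3 was far less abundant, with counts of 152, 106, 35 and 72 in knockout and 2, 8, 0 and 0 in wild type. The fitted rise of 43.1-fold (5.43 ± 0.93, adjusted p = 0.002) rests on 10 wild-type counts in all. Without WT replicate 2, which holds 8 of them, the log2 fold change was 7.33 (adjusted p = 0.00462), so the size of the rise is poorly set.

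Nerve and glia markers were near 0 in every library. All 6 stayed below the count filter, and their sum was 1.10 to 2.71 CPM in knockout and 1.10 to 1.79 CPM in wild type. Enteroendocrine markers, of hormone cells of which a part make serotonin, summed to 429.8 to 695 CPM in knockout and 308 to 477 CPM in wild type. Of the 5, Chga and Neurod1 were higher. These calls were lost in 10 and 9 alternatives, the replicate block among those of Chga (adjusted p = 0.0518). Tph1, the marker of serotonin synthesis in the list, was named after its values were seen and had no call (log2 0.39, adjusted p = 0.0874). The part of enteroendocrine cells in the level of Slc6a4 was not tested. In the RefSeq gene order of chromosome 13, Slc6a3 is followed by Clptm1l, Tert, Slc6a18 and Slc6a19. The genes between Slc6a3 and Slc6a18 were chosen after their values were seen, did not pass the test, and were not tested against the transporters beside them. Clptm1l averaged 183 ± 15.7 CPM in knockout and 219 ± 24.6 in wild type (adjusted p = 0.118), and Tert 5.56 ± 2.50 and 6.53 ± 0.591 (adjusted p = 0.535). The proline carrier Slc6a7, known from brain, had 7.34 ± 4.10 CPM in knockout and 3.41 ± 1.05 in wild type, with an adjusted p of 0.0613 and, with the replicate block, 0.0192. The glutamate carrier Slc1a3 and the glycine carrier Slc6a9 had adjusted p-values of 0.123 and 0.67.

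Among the members outside these roles, 3 of 9 tested genes were higher and 1, Slc7a6os, was lower. That is 33.3 percent higher and 11.1 percent lower, against 24.2 and 23.1 percent of all tested genes. Slc6a18, a relative of Slc6a19 known from mouse kidney, had 13.8, 6.54, 6.78 and 19.1 CPM in knockout and 1.48, 1.79, 0.179 and 0.110 CPM in wild type. It rose 13.6-fold (3.76 ± 0.78, adjusted p = 0.0043). Slc7a15, a member of the light-chain family, had 342, 270.1, 124 and 237 CPM in knockout and 39.5, 47.8, 8.31 and 5.29 CPM in wild type. It rose 9.72-fold (3.28 ± 0.70, adjusted p = 0.00486), and in both genes the groups did not overlap. Slc6a18 passed the filter on low counts in 4 knockout and 2 wild-type libraries, so its separation is not independent of that filter. Slc7a15 passed it in all libraries. Slc36a4, of the family of Slc36a1, had 9.81 ± 1.96 CPM in knockout and 4.36 ± 0.903 in wild type and rose 2.25-fold (adjusted p = 0.00348). The 5 without a call were Slc15a2, Slc38a6, Slc38a10, Slc43a3 and Slc7a4, with log2 fold changes of 0.05 to 0.93.

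Peptidases act before uptake, at the brush border, and after it, in the cytosol. Of 14 genes for peptide digestion, 13 were higher in knockout, which is 92.9 percent against 24.2 percent of all tested genes. The other 1 had no call, and the median log2 fold change was 2.79. Tmprss15, the enteropeptidase that activates trypsinogen, had 4.71 ± 2.58 CPM in knockout and 0.669 ± 0.0574 in wild type (adjusted p = 0.00145). Its counts were 28, 63, 80 and 31 in knockout and 9, 8, 12 and 11 in wild type. The wild-type counts lay near the filter's minimum of about 10, so it entered the test mainly through knockout, where it was high. The cytosolic dipeptidases Cndp2 and Pepd, which split dipeptides inside the cell, rose 6.01-fold and 5.59-fold (adjusted p = 0.00148 and 0.00161). All 3 genes tested and reported among the transporters' partners and drivers were higher, with log2 fold changes of 1.30 to 4.17. Pdzk1, a scaffold of brush-border carriers, had 268 ± 109.7 CPM in knockout and 15.0 ± 10.2 in wild type (adjusted p = 0.0015). The sodium pump subunit Atp1b1 rose 2.47-fold (adjusted p = 0.00293). Slc9a3, a sodium-proton exchanger of the brush border, rose 2.59-fold (adjusted p = 0.00641).

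Of 17 tested genes of amino acid sensing and of the signalling that follows it, 4 were higher, 1 was lower and 12 had no call. The 23.5 percent that were higher lie close to the 24.2 percent of all tested genes. Sesn1 and Castor2, cytosolic regulators of mTOR signalling related to the leucine and arginine sensors, rose 5.38-fold and 4.94-fold (adjusted p = 0.00109 and 0.00131), and the GTPase Rragd rose 7.19-fold (adjusted p = 0.00131). Their relatives Sesn2, Sesn3 and Castor1, named after their values were seen, had no call (adjusted p = 0.085, 0.363 and 0.235). Of 4 glutathione synthesis and recycling genes only Gsr, glutathione reductase, passed the test. It was 1.51-fold lower in knockout (adjusted p = 0.00689). Atf4, the transcription factor of the amino acid response, was named after its values were seen. It had 287 ± 17.2 CPM in knockout and 281 ± 14.0 in wild type (log2 0.03, or −0.24 with total counts, adjusted p = 0.833). Of 8 members known as targets of that response, 4 were lower (Slc7a5, Slc7a1, Slc1a5 and Slc7a11), Slc3a2 was higher and 3 had no call.

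Promoters of RefSeq (GRCm38.p6), from 250 bases before to 50 after the gene start, were searched for short motifs on both strands. The letters TTGCATCA, a composite element bound by ATF4, were in 3 of 31 tested members with a promoter sequence (9.68 percent) and in 79 of 10299 tested genes (0.767 percent). The members were Slc7a11, Slc1a4 and Slc7a7, of which 1 was lower, 1 had no call and 1 was higher. The HNF4A motif CAAAGTCCA was in 1 member, Slc3a1, and in 63 of 10299 genes (0.612 percent). The CDX2 motif TTTATGG was in 1 member, Slc7a15, and in 211 of 10299 genes (2.05 percent). The ATF4 element is shown in capitals, as it reads on the gene's strand, to set it in a gene that was lower beside genes that were not. Slc7a11 held it 2 times, and the copy nearer the start is shown. The HNF4A match of Slc3a1 is the last sequence. No match overlapped a match of another motif.
Slc7a11 (chr3:50443642-50443671, minus strand): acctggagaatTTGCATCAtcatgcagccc
Slc1a4 (chr11:20332699-20332728, minus strand): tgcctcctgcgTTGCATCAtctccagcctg
Slc7a7 (chr14:54417927-54417956, minus strand, motif reversed): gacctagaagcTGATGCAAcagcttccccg
Slc3a1 (chr17:85028298-85028326, plus strand): cttggctggaCAAAGTCCAgccatgatta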

How the data were processed

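Gene expression was measured by RNA sequencing in 8 libraries, 4 per genotype, from RNA extracted with TRIzol, per the labels. The submitters' processing notes name HISAT2 and DESeq2 without saying what each did. The sources used here do not give the counting program, genome build, annotation or use of strand. Per the file headers, the deposited table holds read counts of each gene in each library. Because 8.04 to 9.18 percent of values were not whole, these deposited values were taken as estimated counts and rounded to whole numbers. The other deposited columns, without a stated unit, were taken as the authors' FPKM, since they followed count over library total to within 1.04 percent.

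The main test was the quasi-likelihood test of edgeR 4.0.16 (R 4.3.3), with TMM factors, glmQLFit and glmQLFTest, over all 12908 genes that passed filterByExpr, about 10 counts in at least 4 libraries, with genotype as the only term and Benjamini-Hochberg adjustment at 0.05. The function was tested on simulated data. Levels are CPM with TMM factors, fold changes are knockout over wild type, and the SE is the log2 fold change over the square root of F. All 65 members matched the RefSeq gene table, which is used only for names and gene order. The promoter table does not hold all genes.

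The members, roles and lists were chosen with earlier results of these data known. Named were all luminal and basolateral genes, the growth uptake list, of other members the 8 called with the smallest p in each direction, and up to 3 called genes of a context list. The count for partners and drivers leaves out some listed genes, which are not reported here. The lists for goblet cells (4 of 5 tested markers higher), tuft cells (4 of 5), Paneth cells (0 of 5), endothelium (0 of 5), immune cells (0 of 5) and fibroblasts and muscle (1 of 6) had no lower gene. Where a list or family had 0 calls in a direction, the count at an unadjusted p under 0.05 and that of DESeq2 were also 0, except for 1 higher Paneth gene in each. The part of these other cell types in the results was not tested. Libraries with the same replicate number deviated together from their group means (r of 0.311 to 0.524, against −0.478 to 0.447 for other numbers), which met the rule for a replicate block. The labels do not give the numbers' meaning, so the main test carries no block and the block is an alternative. The alternatives were DESeq2 1.42.0, RLE factors, total counts, no low-count filter, the replicate block, leaving out each library, replicates 1 to 3 alone and, chosen after seeing the data, leaving out the 3 libraries highest in fibroblast and muscle transcripts.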

Additional observations from a re-analysis of the deposited data

Results flagged for a closer look

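Of 86 groups of 4 libraries, 43 tested members in 2 genotypes, 3 held a library far from the other 3 relative to the group's whole range by Dixon's rule. Chance flags about 1 in 20 groups. Slc6a14 was at 187 CPM in KO replicate 4, against 7.07 to 25.5 CPM in the other knockout libraries. Slc1a1 was at 59.6 CPM in KO replicate 4, against 28.5 to 31.9 CPM in the others. Slc15a3, a lysosomal peptide carrier, was at 4.39 CPM in KO replicate 3, against 0.515 to 0.561 CPM in the others. That library was also the highest in summed immune markers, and the part of immune cells was not tested.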

How the results depend on the processing

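The counts of higher members (18) and lower members (9), of higher luminal (6) and basolateral (5) genes and of lower growth uptake genes (6) stayed within 1.5 times under every alternative, except that without WT replicate 4 only 5 members were lower and 4 calls were lost, those of Slc15a4, Slc1a5, Slc7a1 and Slc7a6os. Leaving out 1 library at a time gave 5 to 12 lower members and 18 to 20 higher ones. With the replicate block 20 members were higher and 9 lower. The pairing added Slc6a6, Slc6a7 and Slc38a2, lost Slc15a4 and changed no other call among the members. DESeq2 gave 21 higher and 10 lower. Without the 3 libraries highest in fibroblast and muscle transcripts, 18 were higher and 10 lower, with Slc38a9, Slc15a4 and Slc7a6os no longer called (adjusted p = 0.0792, 0.159 and 0.0742).

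Directions turned only in genes without a call, and the cause was not tested. With 1 library left out, log2 fold changes ran over −0.39 to 0.89 for Slc15a2, −1.87 to 0.34 for Slc15a3, −0.21 to 0.31 for Slc1a1, −2.06 to 0.34 for Slc6a14, −0.17 to 0.11 for Slc7a4 and −0.056 to 0.068 for Atf4. With total counts they were −0.11 for Slc1a1, −0.13 for Slc38a10, −0.052 for Slc38a7, −0.23 for Slc7a4 and −0.24 for Atf4. In replicates 1 to 3 they were −0.031 for Slc1a1 and −0.014 for Atf4, which without the low-count filter was at −0.004. Without the 3 libraries named above they were −1.55 for Slc15a2, −0.22 for Slc1a1 and −0.002 for Slc38a6. Leaving out WT replicate 2 moved Slc6a3 to 7.33, and depth limits what can be said of the 22 members below the count filter.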
